A study of Mus musculus with 6 samples.

Results

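Long intergenic noncoding RNAs (lincRNAs) are transcripts without a recognised reading frame whose genes lie between protein-coding genes. The lincRNAs expressed in mouse dorsal root ganglia, which house the cell bodies of sensory neurons next to the spinal cord, were followed here across 6 bulk RNA-seq libraries. Members were selected on the deposited biotype lincRNA and on a mean FPKM of at least 1 over the 6 libraries. FPKM is the number of sequenced fragments per kilobase of transcript, scaled to library size, so it compares levels between genes of different length. The rule held for 204 of 5559 lincRNA entries (3.67%), in a table of 54532 entries. Expression itself chose the members, so their levels are given as a description. Of all lincRNA entries, 3149 had 0 counts in every library.

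The study set Ash1l+/- mice, which carry 1 altered copy of the histone methyltransferase gene Ash1l, beside wild types (WT) from the same litters, with 3 libraries of whole ganglia per genotype. The labels used here give no age, sex, strain, treatment or design of the Ash1l allele, and do not say whether a library is 1 animal or a pool. The p-values therefore rest on the spread among these samples alone, some of which may be technical. In whole ganglia, fewer cells of a type and less RNA per cell cannot be told apart.

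As background, lincRNAs act in several ways. Some build or join bodies in the nucleus: Malat1 is a nuclear transcript of splicing speckles, and Neat1 is the scaffold of paraspeckles. Others are carriers, whose introns or exons are cut into small RNAs: the Snhg genes host small nucleolar RNAs (snoRNAs), which guide chemical changes of ribosomal RNA, and Meg3 and Mirg belong to an imprinted cluster of microRNA genes. Still others bind proteins or microRNAs in the cytoplasm: 2900097C17Rik, known as Norad, binds Pumilio proteins, and 1700020I14Rik, known as Cyrano or Oip5os1, triggers the decay of miR-7.

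Sequences carried by the members are shown first, because the study's title concerns a let-7 microRNA and the small RNAs inside a lincRNA are what several of these genes are known for. In 9 members a hairpin of RefSeq's GRCm38.p6 tables lay on the same strand within the gene, 23 hairpins and 44 mature microRNAs in all, and Mirg alone held 14 hairpins. One mature sequence is given for each host whose values are described below, together with the only pair in this set that shares a seed. They are written 5′ to 3′, with the seed, bases 2 to 8, in capitals.
let-7d-5p, in 6720427I07Rik: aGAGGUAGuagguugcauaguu
miR-325-3p, in 5330434G04Rik: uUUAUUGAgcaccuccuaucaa
miR-6516-5p, in Snhg20: uUUGCAGUaacagguguggaca
miR-3069-5p, in Snhg10: uUGGCAGUcaagauauuguuuagc
miR-101a-3p, in E130102H24Rik: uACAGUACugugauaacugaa
miR-138-5p, in C78859: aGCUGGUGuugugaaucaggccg
miR-191-5p, in 4833445I07Rik: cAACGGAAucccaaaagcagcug
miR-770-5p, in Meg3: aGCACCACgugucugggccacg
miR-134-5p, in Mirg: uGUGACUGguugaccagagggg
miR-453, in Mirg: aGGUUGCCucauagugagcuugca
miR-496a-5p, in Mirg: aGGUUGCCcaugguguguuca
The seed of let-7d-5p occurs in 13 mature entries of the RefSeq table, the let-7 family and its relatives. The seed GGUUGCC is shared by miR-453 and miR-496a-5p of Mirg and by no other mature entry of the table. The libraries measured the host transcripts, not the mature microRNAs: the 27 microRNA entries inside 11 members had at most 4 counts each over the 6 libraries together.

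The members were mostly modest in level. Their median mean FPKM was 2.37. A mean of at least 2 was reached by 123 members, of at least 5 by 45, of at least 10 by 20 and of at least 50 by 3. In all 6 libraries, 115 members were at or above 1 FPKM. Just above the limit stood 4933404O12Rik (mean FPKM 1.014), A330069K06Rik (1.022) and Gm6213 (1.027). Just below it stood AI480526 (0.994), Gm49539 (0.992) and Gm10814 (0.990). Gm49539 shows how 1 library can set the mean, since its FPKM was 5.32 in WT replicate 2 and between 0 and 0.322 in the others.

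Most members are known only by a clone or model name: 110 carry a Gm number, 60 a Rik symbol and 9 an AC clone symbol. They lie on 21 chromosomes, with 4 on X and 1 on Y. Exonic length ran from 154 to 24030 bases with a median of 1228, against 4408 for protein-coding genes at the same FPKM limit. The median GC content of the longest transcript was 48% for the members and 49.9% for those protein-coding genes. Of 203 members with known exons, 40 had a single exon block. Exons of 46 members overlapped those of another entry, 16 of them a protein-coding gene. The library kit named in the labels does not mark strand, so reads of such pairs cannot be told apart.

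Their position relative to coding genes was also recorded. The start of the nearest protein-coding gene was a median of 24126 bases away, and 39 members started within 1000 bases of one. Of these 39, 33 ran divergently, that is, on the opposite strand and away from it.

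One wild-type library stood apart and bears on every count given here. WT replicate 2 correlated with the other libraries at r of 0.846 to 0.877 on log2 counts scaled to library size, whereas the other 5 correlated at 0.981 or more among themselves. It gave the highest FPKM of the 6 libraries in 110 members and the lowest in 68, and in 178 of 204 it lay outside the range of the other 5. Relative to WT replicates 1 and 3, its median member was higher by 0.45 on the log2(FPKM + 0.1) scale, while the median protein-coding gene differed by -0.01. Over 2-fold higher there were 67 members (32.8%), against 20.3% of protein-coding genes, and over 2-fold lower were 38 (18.6%), against 16.4%. Without it, 20 members have a mean FPKM under 1. The FPKM rule counts WT replicate 2, so entries high there could become members through that library alone. Members also lay nearer the limit than the protein-coding genes, with a median mean FPKM of 2.37 against 7.29. The excess of members in WT replicate 2 is thus partly set by the rule and is not read as a trait of lincRNAs.

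**Figure D1:**
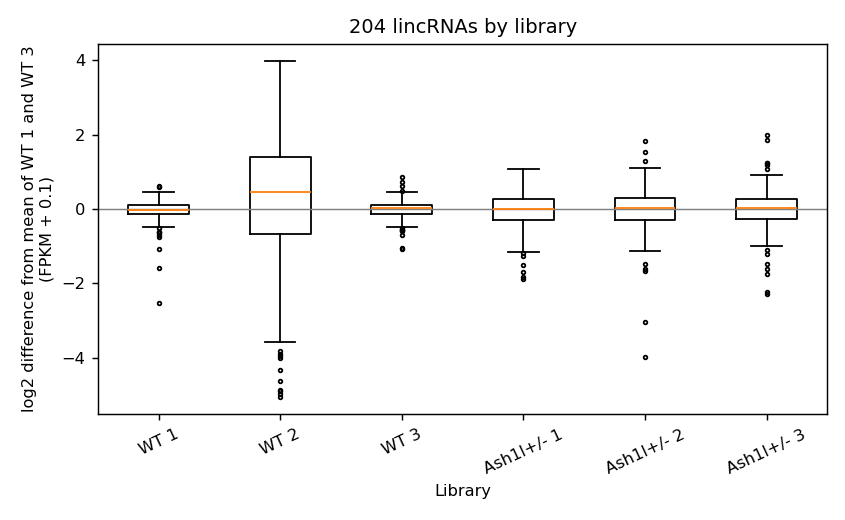
Box plots of the log2 difference of each of the 204 lincRNAs from its mean in WT replicates 1 and 3, on FPKM + 0.1, by library; boxes span the quartiles, lines mark medians, whiskers reach 1.5 times the box length and points lie beyond. The box of WT replicate 2 runs from -0.661 to 1.41 with a median of 0.45, while the Ash1l+/- boxes lie between -0.304 and 0.292.

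Markers of several cell types stood apart in the same library, those of blood and muscle and single markers of the ganglion's own cells. The summed FPKM of 5 erythrocyte markers was 825 in WT replicate 2, 103 and 134 in WT replicates 1 and 3, and 41.9 to 123 in the Ash1l+/- libraries. For 8 skeletal muscle markers it was 21.6 in WT replicate 2 and 1.43 to 2.49 elsewhere. For satellite glia it was 5160 in WT replicate 2 and 1480 to 1839 elsewhere, of which Apoe gave 4613. For endothelial cells it was 148 and 27.7 to 40.3, of which Cldn5 gave 140. These 2 sums do not stand for their lists. Fabp7 was also higher in WT replicate 2, but Glul, Kcnj10, Slc1a3 and Cdh19 were lowest there. Relative to WT replicates 1 and 3, the median marker was at -0.54 for satellite glia and -0.15 for endothelial cells, on the log2(FPKM + 0.1) scale. Markers of sensory neurons, the labelled tissue's defining cells, summed to between 5614 and 6868 FPKM in every library. The part that other cells had in the lincRNA values of WT replicate 2 was not tested. Results below are therefore given with all 6 libraries and with the 5 that leave it out.

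Total gene counts were 17209294 to 20545722 per library, and the members took less than 1% of them. Counts in members made up 0.385%, 0.273% and 0.382% of all counts in the 3 WT libraries, in replicate order, and 0.400%, 0.421% and 0.398% in the 3 Ash1l+/- libraries. Every Ash1l+/- library was above every wild-type one. The mean share was 0.347% ± 0.0639 for WT (SD, n = 3) and 0.406% ± 0.0126 for Ash1l+/- (SD, n = 3), a difference of 0.0595 percentage points with a two-sided exact permutation p of 0.1, the smallest that 3 against 3 can give. Leaving out WT replicate 2 reduced it to 0.0226 points (exact permutation p = 0.2, the smallest that the test can give with 5 libraries). Without Malat1 and Meg3 it was 0.0215 points, with p = 0.8 in the same exact test.

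Libraries labelled Ash1l+/- did not have less Ash1l transcript. It was read at 4.19, 2.11 and 3.74 FPKM in WT and at 4.61, 4.58 and 4.75 FPKM in Ash1l+/-, so the groups did not overlap and Ash1l+/- was the higher. With 6 libraries its log2 fold change came to 0.46 (SE 0.27, adjusted p = 0.396) and with 5 to 0.22 (SE 0.08, adjusted p = 0.0593). Transcript level thus gave no check of the genotype labels.

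The most abundant lincRNA was 2900097C17Rik (Norad), on chromosome 2 from 156388065 to 156392979 of GRCm38, minus strand. Levels of 206, 61.5 and 192 FPKM were read in WT replicates 1, 2 and 3, and of 193, 174 and 179 FPKM in Ash1l+/- replicates 1, 2 and 3, the order used throughout. WT replicate 2 was low by itself and the other 5 libraries lay close together. Its log2 fold change came to 0.24 (SE 0.44, adjusted p = 0.741) with 6 libraries and -0.13 (SE 0.07, adjusted p = 0.206) with 5. Among the 12 most abundant members, 6330403K07Rik, D930028M14Rik, 1700020I14Rik, Tmem250-ps and Malat1 differed between genotypes without WT replicate 2 and are described below.

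Meg3, the imprinted transcript of the maternal allele on chromosome 12, had FPKM of 22.4, 20.8 and 23.9 in WT and 25.4, 30.3 and 25.1 in Ash1l+/-. Every Ash1l+/- value was above every WT value, but the difference did not pass the test, with a log2 fold change of 0.26 (SE 0.16) with 6 libraries and 0.21 (SE 0.08, adjusted p = 0.0769) with 5. Miat, a nuclear lincRNA of neurons, was read at 14, 17 and 12.6 FPKM in WT and 12.5, 13.3 and 10.5 in Ash1l+/-, and the groups overlapped. Neat1 was read at between 7.53 and 9.69 FPKM in all 6 libraries.

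Several abundant members were marked by a single library or a wide scatter rather than by genotype. Gm45881 was at 34.0 and 35.3 FPKM in WT replicates 1 and 3, at 29.0 to 32.1 in Ash1l+/-, and at 1.32 in WT replicate 2, 26.3 times below the other wild types. The opposite held for 1810058I24Rik and Gm47128, which stood at 80.8 and 78.3 FPKM in WT replicate 2 and at 21.5 to 24.3 and 11.3 to 13.9 elsewhere. Gm10076, a single-exon entry, ranged from 6.52 FPKM in Ash1l+/- replicate 3 and 15.4 in WT replicate 3 to 96.6 in WT replicate 2, with the remaining 3 libraries between 47.4 and 49.7.

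**Figure D2:**
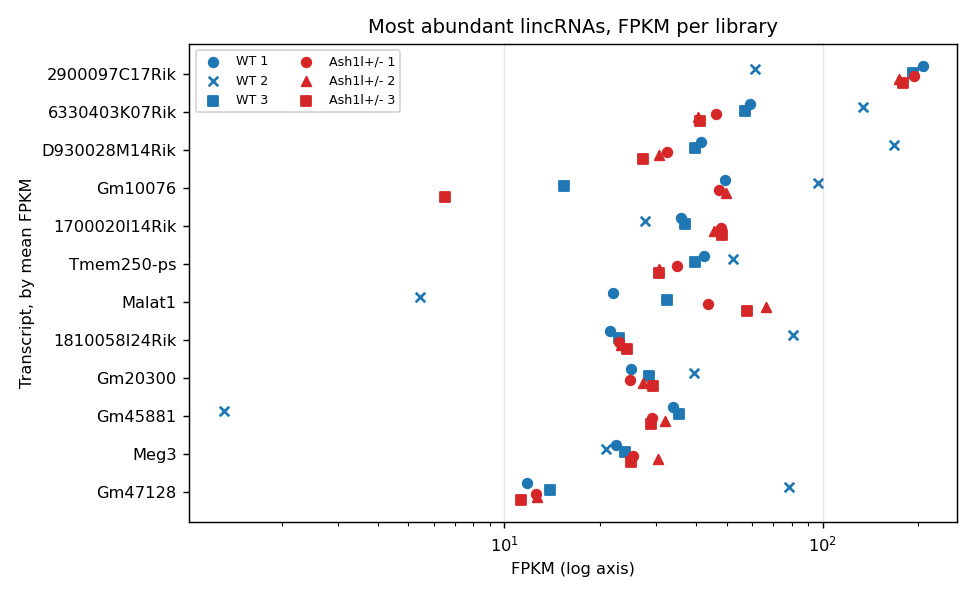
FPKM (log axis) of the 12 lincRNAs with the highest mean FPKM, one row per transcript and one point per library, wild type in blue and Ash1l+/- in red. The crosses of WT replicate 2 lie apart from the other 5 points in most rows, at 1.32 for Gm45881 and 167 for D930028M14Rik.

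With all 6 libraries, no lincRNA differed between genotypes after adjustment over all genes. Of 189 members that passed the filter on low counts, 0 passed 0.05 after Benjamini-Hochberg adjustment in the quasi-likelihood test of edgeR, and 0% of all 16032 genes tested were. The smallest adjusted p of a member was 0.385. DESeq2, which called 0.0172% of all genes, and limma-voom, which called 0%, called 0 members as well. With a weight for each library, 0.0341 for WT replicate 2, limma-voom called 22 members. Of these, 11 were higher and 11 lower, against 21.3% of all genes, 9.92% higher and 11.4% lower. At an unadjusted p under 0.05 there were 20 members (10.6%), 6 higher and 14 lower in Ash1l+/-, and the share over all genes was also 10.6%, with 3.22% higher and 7.4% lower. The median log2 fold change was -0.11 over the members tested and -0.00 over all genes. The 15 members that were not tested had 17 to 118 counts over all libraries together and exonic lengths of 154 to 638 bases.

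Without WT replicate 2, 16 of 190 members tested were past the threshold (8.42%), 8 higher and 8 lower in Ash1l+/-. Over all 16395 genes tested the share was 19.8%, with 9.39% higher and 10.4% lower. DESeq2 called 12 of the 108 members to which it gave an adjusted p, and 21.7% of all such genes. Other noncoding classes at the same FPKM limit had like shares, 8.62% of antisense entries and 8.89% of processed transcripts, and protein-coding genes 25%. The classes differ in depth, since the median member had 65.8 counts per library and the median protein-coding gene 633. Among members with a mean of at least 500 counts, 6 of 16 passed (37.5%), against 32.4% of protein-coding genes of that depth. Among members under 100 counts, 3 of 119 passed (2.52%), against 6.86%.

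Of the 16, all kept their sign with 6 libraries, and for 14 the genotypes did not overlap across the 6 libraries. The exceptions were Gm39469 and AC130815.2, whose WT replicate 2 reached or passed the Ash1l+/- values. The 16 were picked for a difference in 5 of these 6 libraries, and all 16 were without overlap there. Their sign and overlap with 6 libraries were thus largely set by that choice and are no separate support. Over all genes tested with 6 libraries, which were not so picked, 19.8% were higher and 18.6% lower without overlap. Of all members tested, 10.6% and 14.8% were. In 6 of the 8 that were higher in Ash1l+/-, WT replicate 2 was below both other wild types, and in all 8 that were lower it was above them. For these 14 the fold change was larger with WT replicate 2 than without it.

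**Figure D3:**
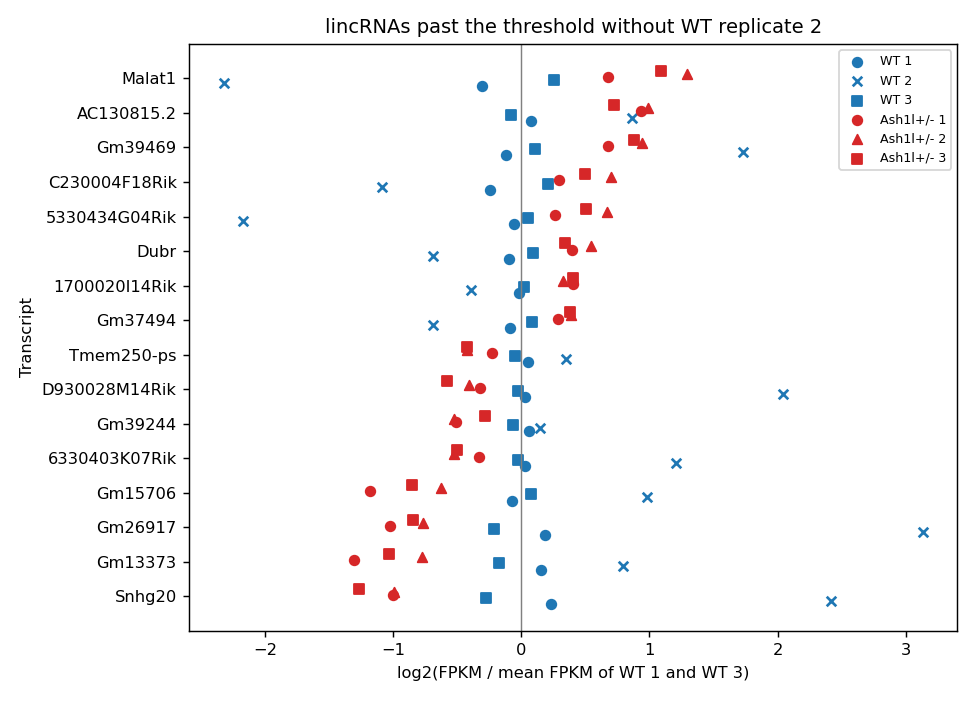
log2 ratio of FPKM to the mean of WT replicates 1 and 3 for the 16 lincRNAs past an adjusted p of 0.05 without WT replicate 2, one point per library. Red Ash1l+/- points lie to the right of the 2 blue wild-type points used in the test for the upper 8 transcripts and to the left for the lower 8, and the crosses of WT replicate 2 lie mostly on the far side of the wild types.

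Malat1, the speckle transcript on chromosome 19 (5795690 to 5802672, minus strand, a single exon block), had the largest rise among those past the threshold. It was read at 21.9, 5.44 and 32.4 FPKM in WT and at 43.5, 66.4 and 57.7 FPKM in Ash1l+/-. The lowest Ash1l+/- library was above the highest wild type, although each group was widely spread. Without WT replicate 2 the Ash1l+/- mean was 2.06 times the wild-type mean, a log2 fold change of 1.04 (SE 0.14, adjusted p = 1.23e-04). With 6 libraries it was 1.48 (SE 0.61, adjusted p = 0.385). Exons of 2 other entries overlap Malat1, which the counting may have split.

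1700020I14Rik (Cyrano), on chromosome 2 from 119594297 to 119607502, rose by less but with little scatter. FPKM was 35.9, 27.7 and 36.9 in WT and 48.1, 45.7 and 48.2 in Ash1l+/-. All 3 Ash1l+/- libraries were above all 3 wild types. Its log2 fold change was 0.38 (SE 0.07, adjusted p = 0.0015) with 5 libraries and 0.49 (SE 0.17, adjusted p = 0.385) with 6. C230004F18Rik, on chromosome X, is known as the transcript across the locus of the circular RNA Cdr1as, which binds miR-7, the microRNA that Cyrano degrades. It was read at 0.825, 0.459 and 1.13 FPKM in WT and 1.20, 1.59 and 1.38 in Ash1l+/-, a log2 fold change of 0.51 (SE 0.13, adjusted p = 0.0108) with 5 libraries. Its exons overlap those of Cdr1 on the other strand, and the circular RNA was not analysed here.

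Dubr, a lincRNA studied in muscle differentiation, lies on chromosome 16. It had FPKM of 7.25, 4.81 and 8.29 in WT and 10.2, 11.3 and 9.85 in Ash1l+/-, again without overlap. This gave a log2 fold change of 0.43 (SE 0.10, adjusted p = 0.00501) with 5 libraries and 0.61 (SE 0.23, adjusted p = 0.385) with 6. The other 4 that were higher were AC130815.2 (log2 fold change 0.88), Gm39469 (0.83), 5330434G04Rik (0.48), the host of miR-325 shown above, and Gm37494 (0.35), with adjusted p of 0.00192, 0.0298, 0.0122 and 0.03 with 5 libraries. AC130815.2 was at 1.09, 1.89 and 0.982 FPKM in WT and 1.98, 2.06 and 1.71 in Ash1l+/-.

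Snhg20, a snoRNA host gene on chromosome 11 (117076008 to 117078955, plus strand), showed the largest fall among those past the threshold. Levels were 4.44, 20.2 and 3.12 FPKM in WT and 1.89, 1.90 and 1.57 in Ash1l+/-. The Ash1l+/- libraries were tightly grouped below all wild types, and WT replicate 2 was 5.35 times the mean of the other wild types. Its log2 fold change came to -1.08 (SE 0.18, adjusted p = 6.0e-04) with 5 libraries and -2.38 (SE 0.75, adjusted p = 0.385) with 6. Its exons overlap those of Mir6516 and of a small Cajal body RNA entry.

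6330403K07Rik, on chromosome 11 from 71031941 to 71033513, was the second most abundant member. It was read at 59.2, 134 and 57.2 FPKM in WT and at 46.3, 40.5 and 41.1 in Ash1l+/-. WT replicates 1 and 3 agreed closely, and no Ash1l+/- library reached them. On the log2 scale the fold change was -0.45 (SE 0.08, adjusted p = 9.99e-04) with 5 libraries and -0.98 (SE 0.36, adjusted p = 0.385) with 6. D930028M14Rik, which lies within the span of Pou2f2 on the opposite strand, had FPKM of 41.4, 167 and 39.8 in WT and 32.5, 30.6 and 27.2 in Ash1l+/-, a log2 fold change of -0.43 (SE 0.10, adjusted p = 0.0046) with 5 libraries.

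Gm15706 was at 3.03, 6.30 and 3.36 FPKM in WT and 1.41, 2.07 and 1.77 in Ash1l+/- (log2 fold change -0.87, SE 0.29, adjusted p = 0.0395 with 5 libraries). Gm39244, within the span of Zfhx3 and on the opposite strand, was at 4.38, 4.65 and 4.01 FPKM in WT and 2.95, 2.92 and 3.44 in Ash1l+/-, and here WT replicate 2 lay near the other wild types. Its log2 fold change was -0.44 (SE 0.15, adjusted p = 0.0396) with 5 libraries, while that of Zfhx3, a homeobox transcription factor, was 0.38 (SE 0.09, adjusted p = 0.008). Gm26917, an entry at ribosomal RNA sequence on chromosome 17, was at 2.62, 20.2 and 1.99 FPKM in WT and 1.13, 1.35 and 1.28 in Ash1l+/- (log2 fold change -0.88, SE 0.19, adjusted p = 0.00349 with 5 libraries). Gm13373 (log2 fold change -1.03) and Tmem250-ps (-0.36) completed the 8, with adjusted p of 0.0286 and 0.00503 with 5 libraries.

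These calls leaned on WT replicate 1. When it was left out as well, so that WT replicate 3 stood alone and was assumed to vary like the Ash1l+/- libraries, 5 members remained past the threshold: Malat1, 1700020I14Rik, AC130815.2, Snhg20 and 6330403K07Rik. The other 11 lost the call, with adjusted p of 0.0688 to 0.344. The same 5 were past the threshold with each of the other libraries left out in turn, and the remaining fits without 1 further library lost between 3 and 5 of the 16.

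Base composition went with direction among the 16. The 8 lincRNAs that were higher had a GC content of 34.4% to 44.1% (median 40.7%) and a median exonic length of 6738 bases. The 8 that were lower had a GC content of 40.4% to 69.1% (median 52.9%) and a median length of 1988. Over the 190 members, Spearman's correlation between GC content and the log2 fold change with 5 libraries was -0.286, and over 14286 protein-coding genes it was -0.6. Between exonic length and that fold change it was 0.111 over the members. The lengths of the 8 higher ran from 461 to 24030 bases, and of the 8 lower from 655 to 3329. These are descriptions across genes of the same libraries, which are not independent replicates.

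When each library's trends with GC content and length were removed, 10 members were past the threshold (5.26%), 3 higher and 7 lower, against 7.04% of all genes, 2.62% higher and 4.42% lower. The correlation with GC content over the members was then 0.0862. Among them, 6 were shared with the 16 in the same direction: Malat1 (log2 fold change 0.83, adjusted p = 9.49e-04), AC130815.2 (0.76, 0.0107) and Dubr (0.29, 0.0415) were higher, and Snhg20 (-0.94, 0.00272), 6330403K07Rik (-0.32, 0.00836) and Gm39244 (-0.62, 0.0117) were lower. The rise of 1700020I14Rik shrank to 0.09 (adjusted p = 0.468), that of C230004F18Rik to 0.04 (0.862), and Gm37494 turned to -0.07 (0.729). Gm26917 was at -0.45 (0.163). The 4 called only after this removal, all lower, were Neat1 (-0.35, 0.0246), D130009I18Rik (-0.33, 0.0353), 2900097C17Rik (-0.24, 0.0457) and Gm20300 (-0.23, 0.0325), of which D130009I18Rik is named because its value was seen. Malat1, AC130815.2, Snhg20 and 6330403K07Rik passed the threshold under every alternative run on the 5 libraries.

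**Figure D4:**
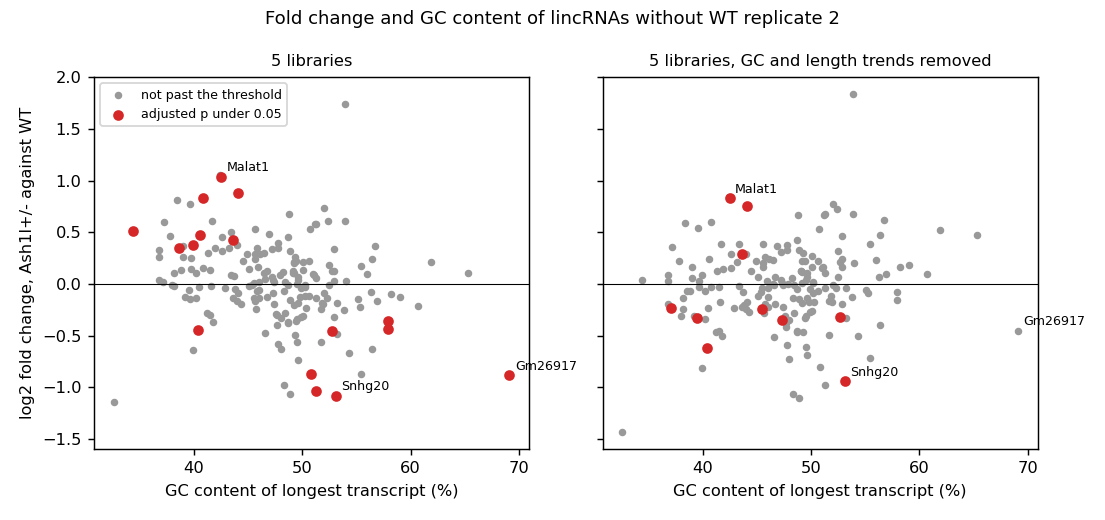
log2 fold change of each tested lincRNA without WT replicate 2 against the GC content of its longest transcript, before (left) and after (right) removal of GC and length trends; red points passed an adjusted p of 0.05. On the left the 8 higher points lie between 34.4% and 44.1% GC, and on the right Malat1 and Snhg20 are still marked while Gm26917 is not.

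The promoters of Malat1, Dubr and Snhg20 are given as examples, 2 higher and 1 lower, of members that differed between genotypes both before and after removal of the trends. 6330403K07Rik and Gm39244 did so too and have an entry in the same table. RefSeq's GRCm38.p6 table held a promoter for 85 of the 204 members. Each sequence runs from 250 bases before to 50 after the RefSeq start, 5′ to 3′ on the gene's strand, with matches to the motifs named next in capitals. The start of Snhg20 in that table lies 775 bases inside the gene as the deposited table gives it.
Malat1, chr19:5802623-5802922, minus strand: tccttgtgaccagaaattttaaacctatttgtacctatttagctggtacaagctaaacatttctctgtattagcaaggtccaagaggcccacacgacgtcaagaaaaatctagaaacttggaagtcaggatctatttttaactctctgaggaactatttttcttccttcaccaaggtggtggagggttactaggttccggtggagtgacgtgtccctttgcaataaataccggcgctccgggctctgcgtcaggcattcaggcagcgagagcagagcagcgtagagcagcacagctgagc
Dubr, chr16:50732724-50733023, minus strand: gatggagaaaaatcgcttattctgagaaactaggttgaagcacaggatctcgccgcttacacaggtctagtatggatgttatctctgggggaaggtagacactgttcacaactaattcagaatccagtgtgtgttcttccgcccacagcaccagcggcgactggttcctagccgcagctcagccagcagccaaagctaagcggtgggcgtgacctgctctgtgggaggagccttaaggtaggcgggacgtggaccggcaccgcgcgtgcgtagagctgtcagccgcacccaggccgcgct
Snhg20, chr11:117076533-117076832, plus strand: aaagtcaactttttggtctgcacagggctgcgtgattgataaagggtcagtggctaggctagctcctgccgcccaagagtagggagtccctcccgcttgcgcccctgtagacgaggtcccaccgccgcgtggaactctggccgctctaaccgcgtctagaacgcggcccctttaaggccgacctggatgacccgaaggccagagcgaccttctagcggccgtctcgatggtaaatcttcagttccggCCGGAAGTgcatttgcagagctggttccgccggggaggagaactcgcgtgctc
On both strands, 6 motifs were searched, none of which contains another: the TATA box TATAAA, the AP-1 site TGACTCA, the cAMP response element (CRE) TGACGTCA, the E-box CACGTG, the ETS-type site CCGGAAGT and the CCAAT box. The ETS-type site was found in Snhg20 and in 3.53% of member promoters, against 3.89% of 32851 promoters of all genes. Members entered with 1 promoter each, the one nearest the deposited start. The 32851 were not reduced in this way, so a gene may enter more than once and the 2 sets are not alike. No match to any of the 6 was found in the windows of Malat1 and Dubr. The CRE occurred in 3.53% of member promoters, Meg3 among them, and in 1.79% of all, which for the members is 3 promoters. For TATAAA the shares were 12.9% and 13.6%, and for CCAAT 42.4% and 37.4%. The median GC content of these windows was 53.7% for members and 52.7% for all. A match describes the letters only.

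Among snoRNA hosts, 6 of 20 listed genes in the table were members: Snhg6, Snhg10, Snhg12, Snhg18, Snhg20 and Epb41l4aos. Transcripts of this class are known for a run of pyrimidines at the start and for decay of the spliced exons once translated. The starts of 4 of them are shown to compare this feature, from 20 bases before to 30 after the RefSeq start, with the longest pyrimidine run near the start in capitals.
Snhg10, chr12:105032250-105032299, minus strand: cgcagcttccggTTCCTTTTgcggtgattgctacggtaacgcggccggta
Snhg12, chr4:132308658-132308707, plus strand: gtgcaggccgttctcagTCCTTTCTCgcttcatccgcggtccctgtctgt
Snhg18, chr15:32244633-32244682, minus strand: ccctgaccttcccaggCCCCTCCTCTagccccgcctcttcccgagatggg
Snhg20, chr11:117076763-117076812, plus strand: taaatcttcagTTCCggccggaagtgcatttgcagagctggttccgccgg
A run of at least 8 pyrimidines between 10 bases before and 20 after the start was present in Snhg10, Snhg12 and Snhg18, in 21.2% of member promoters and in 11.7% of all promoters. These shares again set 1 promoter per member against every promoter entry. In Snhg20 the longest such run was 4 bases.

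The 6 hosts were all highest in WT replicate 2. Epb41l4aos was at 57.3 FPKM there and at 5.04 to 6.77 in the other 5 libraries, Snhg6 at 23.7 and 5.30 to 7.27, and Snhg10 at 13 and 2.69 to 3.63. Snhg12 was at 8.78 there and at 1.66 to 2.64 elsewhere, and Snhg18 at 9.46 and 2.61 to 4.21. Over the listed hosts the median excess of WT replicate 2 was 1.47 on the log2(FPKM + 0.1) scale, against 0.45 for the members. Not all listed hosts were higher there. Rian, no lincRNA in the table, was at 3.31 FPKM in WT replicate 2 and at 19.9 to 25.5 elsewhere. Snhg14, likewise no lincRNA there, was at 0.611 and 1.33 to 2.03. Genes of 8 snoRNA particle proteins summed to 500 FPKM there and to 126 to 136 elsewhere. Most of that sum came from Nhp2 (220 FPKM) and Nop10 (163), while Nop58 (2.00) and Dkc1 (3.43) were below WT replicates 1 and 3.

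With 5 libraries, 1 of the 18 listed hosts tested was higher in Ash1l+/-, Gas5 (log2 fold change 0.31, adjusted p = 0.0264), which is no lincRNA in the table, and 1 was lower, Snhg20, beside 9.39% and 10.4% of all genes. With trends removed, Gas5 was at 0.16 (adjusted p = 0.251), and 2 hosts were lower, Snhg20 and Rian (-0.28, adjusted p = 0.00883). Of all genes, 4.42% were then lower. The list's median was then -0.18, against -0.00 over all genes. With the trends kept, the median over the list was -0.05, against 0.00 over all genes. In that fit Snhg6 (-0.30, SE 0.17), Snhg12 (-0.29, SE 0.20) and Epb41l4aos (-0.22, SE 0.26) did not pass. Nor did Snhg18 (0.35, SE 0.20) and Snhg10 (-0.04, SE 0.33). Of 20 genes of nonsense-mediated decay and the RNA exosome, 4 were higher (Smg1, Dis3, Upf3b and Upf2) and 1, the exosome subunit Exosc5, was lower. These 5 of 20 stand beside 19.8% of all genes past the threshold, and 25% of protein-coding genes at the FPKM limit. With trends removed, 0 of the 20 were higher and Exosc5 was still lower, at -0.46 (adjusted p = 0.0177), beside 2.62% and 4.42% of all genes.

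Hosts of microRNAs were described as a group. Of the 9 members with a RefSeq hairpin, 1 was higher (5330434G04Rik) and 1 lower (Snhg20) with 5 libraries, beside 9.39% and 10.4% of all genes. Their median log2 fold change was -0.04, against 0.00 over all genes. The let-7d host 6720427I07Rik was at 1.45, 2.14 and 0.966 FPKM in WT and 1.25, 1.69 and 1.06 in Ash1l+/-. The groups overlapped throughout, with a log2 fold change of 0.14 (SE 0.27, adjusted p = 0.762) with 5 libraries.

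E130102H24Rik, whose exons hold the miR-101a hairpin, was at 1.87, 0.905 and 1.96 FPKM in WT and 3.08, 2.87 and 2.85 in Ash1l+/-. The genotypes did not overlap, but the log2 fold change of 0.61 (SE 0.28, adjusted p = 0.129) with 5 libraries did not pass. C78859, host of miR-138, and 4833445I07Rik, host of miR-191, were at -0.07 (SE 0.10) and -0.16 (SE 0.26). Mirg was at 1.37, 3.48 and 1.07 FPKM in WT and 1.20, 1.03 and 0.968 in Ash1l+/-, a log2 fold change of -0.19 (SE 0.17), with WT replicate 2 alone high. Mir124a-1hg, a host of the neuronal miR-124, ranged from 4.05 to 5.28 FPKM over all 6 libraries, with a log2 fold change of 0.06 (SE 0.12).

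The proteins of the bodies that Malat1 and Neat1 belong to were read as a fixed list of 16 genes. With 5 libraries, 5 were higher in Ash1l+/- and 0 lower, beside 9.39% and 10.4% of all genes. They were Son (log2 fold change 0.40) and Srrm2 (0.36), the core proteins of speckles, Matr3 (0.40), Taf15 (0.33) and Srsf1 (0.26). The list's median was 0.11, against 0.00 over all genes. All 16 are protein-coding, and most were deeply counted. Of protein-coding genes with a mean of at least 500 counts, 32.4% passed in either direction. The 5 of 16 are therefore not read as an excess. With trends removed, Srrm2 (0.31, adjusted p = 0.0103) and Taf15 (0.36, adjusted p = 0.0174) passed, both higher, where 2.62% of all genes were. Among listed RNAs of nuclear architecture, 2 of 11 tested were higher, Malat1 and Tug1 (0.27, adjusted p = 0.0223), which the table lists as antisense. With trends removed Malat1 alone was higher, while Neat1 and 2900097C17Rik were lower. After that removal 2.62% of all genes were higher and 4.42% lower.

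The lincRNAs and their nearest protein-coding genes were set side by side for the 160 pairs in which both were tested with 5 libraries. In 85 pairs (53.1%) the fold changes had the same sign, and Spearman's correlation across pairs was 0.174. In the 32 divergent pairs within 1000 bases, it was 0.0179. Of 12 lincRNAs past the threshold with a tested neighbour, 1 had a neighbour past it, Zfhx3 beside Gm39244, in the opposite direction. Over all pairs, 23.8% of neighbours were past the threshold.

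Markers of cell types in the ganglion moved between genotypes to some extent with 5 libraries. For satellite glia 4 of 6 markers were higher and 0 lower, for fibroblasts 0 of 6 were higher and 3 lower, and for sensory neurons 2 of 12 were higher and 2 lower. Of Schwann cell markers 1 of 6 was higher and 2 lower, of erythrocyte markers 0 of 5 were higher and 2 lower, and of neutrophil and mast cell markers 1 of 6 tested was lower. Of endothelial markers 1 of 6 was higher, and of central nervous system markers 1 of 4 tested was higher and 1 lower. For macrophages and muscle 0 passed. Of the 5 genes used to read sex, the 4 on chromosome Y were higher and Xist did not pass. Ddx3y, on chromosome Y, was read at 7.4 to 12.6 FPKM and Xist at no more than 0.168 FPKM over the 6 libraries, so all of them read as male. Over all genes, 9.39% were higher and 10.4% lower, and 25% of protein-coding genes at the FPKM limit passed in either direction. With trends removed these became 1 higher for satellite glia, 3 lower for fibroblasts, and 5 higher and 1 lower for sensory neurons, with 1 lower each for Schwann cells, erythrocytes, and neutrophils and mast cells. For endothelial cells and the central nervous system 1 each was higher, and of the sex genes 0 passed. Over all genes, 2.62% were then higher and 4.42% lower. Summed FPKM of the satellite glial markers was 1754 and 1680 in WT replicates 1 and 3 and 1480 to 1839 in Ash1l+/-. The part of cell composition in the lincRNA differences was not tested.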

How the data were processed

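The authors deposited read counts per gene for 6 libraries, in a table that also holds gene positions, lengths and biotypes, and FPKM values in a second table. HISAT2 2.0.5, featureCounts 1.5.0-p3 and GRCm38 (mm10) are named, per the submitters' processing notes; the annotation release and counting options were not stated there. The deposited FPKM equal the counts over gene length and 1 effective library size, 1.02 to 1.04 times the count total in 5 libraries and 0.75 of it in WT replicate 2. Total counts were 19033437, 17648407 and 18389787 for WT replicates 1 to 3, and 20545722, 17647095 and 17209294 for Ash1l+/-. No 2 libraries agreed within sampling noise (lowest chi-square per degree of freedom 3.91).

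The members and lists were chosen with earlier results of these data known. Counts were tested over all genes with edgeR 4.0.16 in R 4.3.3 (TMM factors, filterByExpr, quasi-likelihood, Benjamini-Hochberg adjustment at 0.05), with 6 libraries and without WT replicate 2. Named members were the 12 with the highest mean FPKM, in each direction the 8 of lowest unadjusted p with 6 libraries, up to 8 in each direction past the threshold with 5, list members, and 3 entries on each side of the FPKM limit; only some of them are described. SE is the log2 fold change over the square root of F. Trends were removed by loess offsets (span 0.3) on gene length and GC content in GENCODE M21, where 198 of 204 members lay at the same position. Alternatives used DESeq2 1.42.0, limma 3.58.1, other scalings, filters and FPKM limits, a replicate block and libraries left out in turn. The fits were first tested on simulated counts with known changes. Some results on single neighbouring genes are not reported here.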

Additional observations from a re-analysis of the deposited data

How the results depend on the processing

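With 6 libraries the count of 0 lincRNAs past the threshold rose to 22 with library quality weights in limma-voom, to 16 without WT replicate 2, and to 10 without it and with GC and length trends removed; leaving out each library in turn gave 0 to 16, and 0 for every library but WT replicate 2. With 5 libraries the count of 16 fell to 10 with trends removed and ran from 5 to 20 with a further library left out (5 without WT replicate 1); DESeq2 gave 12, the other scalings and limma-voom 16. The replicate block gave 0 with 6 libraries and, added after the data were seen, 18 with 5. Deviations of same-numbered libraries from their group means correlated at r of 0.000517, -0.0317 and 0.0378. The WT mean includes WT replicate 2, which stands far from the others, so these values cannot decide whether the numbers pair samples. The median log2 fold change with 6 libraries ran from -0.23 to 0.02 with libraries left out, and was 0.06 on library totals, which moved the median of all genes to 0.13. The difference in the share of counts ran from 0.0226 to 0.0785 points with libraries left out. Direction turned, with 6 libraries and trends removed, for 1700020I14Rik (-0.08), C230004F18Rik (-0.02), Gm37494 (-0.23) and Gm39469 (-0.06), and without WT replicate 2 and trends for Gm37494 (-0.07). Gm39469, at 0.02 with 6 libraries, was at -0.29 to 0.83 with libraries left out: -0.29 without WT replicate 1, -0.24 without WT replicate 3, -0.03 without Ash1l+/- replicate 2 and -0.00 without Ash1l+/- replicate 3. The cause was not tested. Members under about 100 counts per library carried a median SE of 0.32 with 5 libraries, so small differences there were not detectable at this depth.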
